A study of Homo sapiens with 6 samples.

Results

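The integrated stress response genes are 10 rows of the deposited count table, chosen by gene identifier (ID) as a set of genes of the ATF4 and CHOP axis: Atf4, Ddit3, Trib3, Atf3, Chac1, Asns, Sesn2, Ddit4, Nupr1 and Cebpb. All 10 were found among its 34866 rows, and 8 of them passed the filter on low counts that left 11400 IDs for testing. RNA sequencing was analysed in 6 libraries labelled MKN45, a human gastric cancer cell line, MUC6 negative by the study's design text. In 3 libraries the cells had received an adenovirus with a short hairpin RNA (shRNA) against GOLPH3, a lipid-binding protein of the Golgi membrane, and in 3 an adenovirus with a control shRNA. All cells were grown in the same serum-containing medium, and both groups carry the virus. The sources used here do not give the hairpin sequences, the number of hairpins, the virus dose or the time after infection. Libraries carry the numbers 1 to 3 within a group, with no word on separate cultures, so the p-values measure only the spread between libraries, which may be technical.

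The table lists mouse gene IDs, and the submitters' processing notes name the mouse build mm10, although the labels give human cells. Human reads counted on mouse gene models and reads from mouse cells under another label cannot be told apart from the table. Expression is therefore compared between libraries for 1 ID at a time. Counts of different IDs are set side by side only to show how deeply each was measured. The table carries no symbols; those of the 10 members come from the list that defines the set, and the level of GOLPH3, other genes of the pathway and epithelial markers were not analysed here. In bulk RNA, fewer cells expressing a gene and less of its RNA in each cell cannot be told apart. The GOLPH3 shRNA libraries held 4977645 to 5676169 estimated counts and the control shRNA libraries 6287037 to 7355140, so every GOLPH3 shRNA library was the smaller. Values below are CPM, counts relative to the library total after scaling with trimmed-mean (TMM) factors.

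The integrated stress response starts with kinases that sense endoplasmic reticulum stress, amino acid shortage, haem shortage or double-stranded RNA and phosphorylate the translation initiation factor eIF2. General translation then falls, while translation of the ATF4 message rises through upstream open reading frames in its leader, so the amount of ATF4 protein is set to a large extent after transcription. ATF4 acts with other leucine zipper factors on genes of amino acid supply and redox balance and on DDIT3, which encodes CHOP. In carcinoma cells the pathway is known as a response to nutrient shortage and to protein folding stress.

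Of the 10 genes, 4 rose in the GOLPH3 shRNA libraries, all by less than 2-fold. They were the transcription factor genes Atf3, Ddit3 and Cebpb, and Asns, which encodes asparagine synthetase. The call of Cebpb was the least stable: it held in 7 of 15 other analysis settings and was lost with DESeq2. The message of Atf4 itself was not called and lay slightly lower. Chac1, Sesn2 and Ddit4 were not called either, and Trib3 and Nupr1 had at most 2 counts in any library after rounding and were not tested. Calls were made at an adjusted p below 0.05 (edgeR quasi-likelihood test, Benjamini-Hochberg adjustment over all 11400 IDs). None of the tested members was called lower (0 of 8, and 0 at an unadjusted p below 0.05; DESeq2 and limma-voom also called 0). Against the 4 of 8 tested members called higher, 16.1% of all tested IDs were called higher, 17.8% lower and 33.9% in either direction, so single calls were common in these libraries. The median log2 fold change was 0.17 over the 8 tested members and 0.0019 over all tested IDs, whose quartiles were -0.32 and 0.30. The members were chosen with earlier results of these data known, so these shares and medians are not an independent comparison. Whether the set as a whole stands apart from other genes was not tested.

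**Figure D1:**
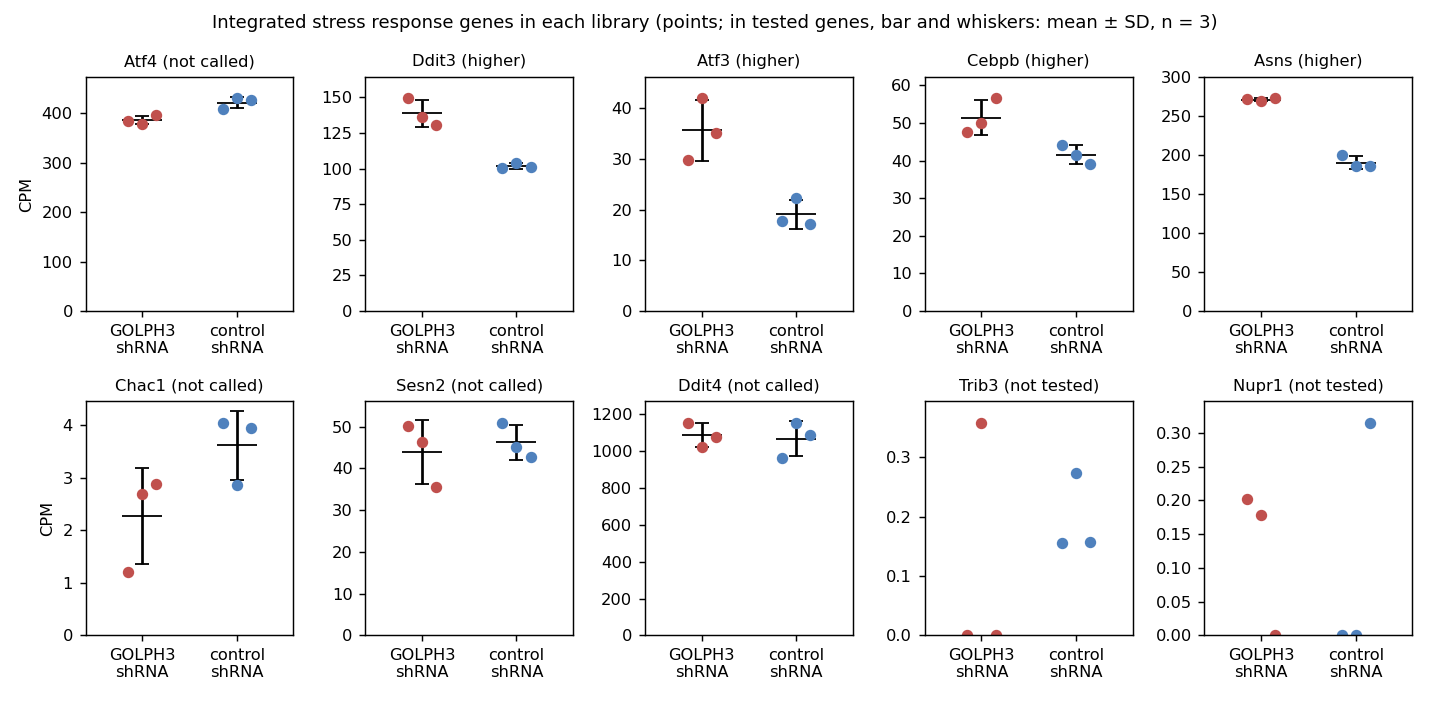
CPM (vertical axes, each from 0) of the 10 genes in the GOLPH3 shRNA libraries (red, left) and the control shRNA libraries (blue, right), with points in replicate order and, for tested genes, the mean and SD of 3 libraries. The red points lie wholly above the blue ones for Ddit3, Atf3, Cebpb and Asns and wholly below them for Atf4.

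Atf4 (ENSMUSG00000042406.8), the central transcription factor of the response, had 384.4, 378.7 and 395.9 CPM in GOLPH3 shRNA replicates 1, 2 and 3, against 409.0, 430.3 and 426.6 CPM in control shRNA replicates 1, 2 and 3. All GOLPH3 shRNA values were below all control values, as they were for 24.2% of the tested IDs. The log2 fold change was -0.13 (SE 0.064, 95% interval -0.26 to 0.0080), and the gene was not called (edgeR adjusted p = 0.14). The interval allows a level from 0.834 to 1.01 times that of the controls. Across 15 other settings the value stayed between -0.15 and -0.11 and was not called in any of them. At 6202 counts summed over the GOLPH3 shRNA libraries and 8490 over the control libraries, Atf4 was measured far more deeply than Chac1, and the interval was narrow.

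Ddit3 (ENSMUSG00000025408.15) encodes CHOP, a C/EBP family factor that is induced by ATF4 and is linked to apoptosis under lasting stress. Its level was 149.2, 136.3 and 130.5 CPM in GOLPH3 shRNA replicates 1, 2 and 3, against 100.4, 103.8 and 100.9 CPM in control replicates 1, 2 and 3. The control libraries lay close together, and the lowest GOLPH3 shRNA value stood clear of the highest control value. Non-overlapping higher values of this kind were found in 22.1% of all tested IDs. Ddit3 was 1.36-fold higher, or 0.45 on the log2 scale (SE 0.079, 95% interval 0.28 to 0.61, edgeR adjusted p = 0.00043). Before scaling, the counts were 736, 761 and 722 with GOLPH3 shRNA and 645, 761 and 640 with control shRNA, so the separation appears once the smaller GOLPH3 shRNA libraries are brought to a common total.

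Atf3 (ENSMUSG00000026628.13), an early stress factor that ATF4 and other pathways induce, had the largest fold change of the called members. It had 29.8, 41.9 and 35.1 CPM in GOLPH3 shRNA replicates 1, 2 and 3, against 17.8, 22.4 and 17.2 CPM in control replicates 1, 2 and 3. Here the groups did not overlap, and replicate 2 was the highest in each group. The gene was 1.86-fold higher, or 0.90 on the log2 scale (SE 0.16, 95% interval 0.56 to 1.23, edgeR adjusted p = 0.00039). Of all tested IDs, 3.99% had a larger positive fold change. Atf3 is also an immediate early gene outside this pathway, and which route its change took was not tested.

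Cebpb (ENSMUSG00000056501.3), a C/EBP factor that can pair with ATF4, had 47.6, 50.1 and 56.6 CPM in GOLPH3 shRNA replicates 1, 2 and 3, against 44.2, 41.5 and 39.1 CPM in control replicates 1, 2 and 3. The groups did not overlap, but the highest control value came close to the lowest GOLPH3 shRNA value. The gene was 1.24-fold higher, or 0.31 on the log2 scale (SE 0.11, 95% interval 0.078 to 0.54, edgeR adjusted p = 0.037). This call was the weakest of those made: 8 of 15 other settings lost it, with adjusted p-values from 0.031 to 0.15 over the 15 and log2 fold changes from 0.23 to 0.35. The call was lost without GOLPH3 shRNA replicate 2 (adjusted p = 0.056), GOLPH3 shRNA replicate 3 (adjusted p = 0.15), control replicate 2 (adjusted p = 0.099) or control replicate 3 (adjusted p = 0.13), and with DESeq2 (adjusted p = 0.058). The estimates for Cebpb had a fractional part in all 6 libraries, which would arise if reads were divided between gene models; whether they were was not tested. With the estimates left unrounded, its log2 fold change was 0.31 (adjusted p = 0.037).

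**Figure D2:**
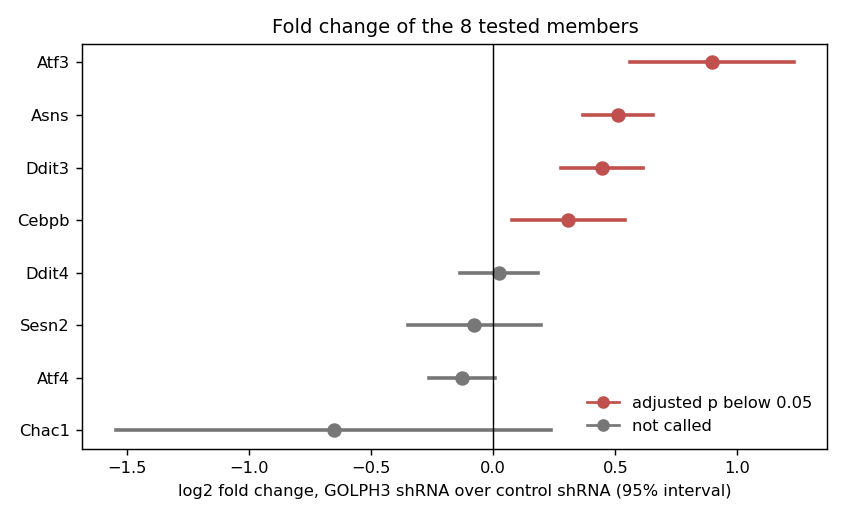
Log2 fold change (horizontal axis, GOLPH3 shRNA over control shRNA) of the 8 tested members, with 95% intervals that are not adjusted for the number of genes; red marks an edgeR adjusted p below 0.05. Atf3 (0.90), Asns (0.51), Ddit3 (0.45) and Cebpb (0.31) lie to the right of 0, and the wide interval of Chac1 (-1.54 to 0.24) goes with its low counts.

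Asns (ENSMUSG00000029752.12), the amino acid supply gene of the set and a widely used readout of ATF4 activity, had the smallest adjusted p of the set. Its level was 271.7, 270.0 and 273.1 CPM in GOLPH3 shRNA replicates 1, 2 and 3, against 200.0, 185.7 and 186.0 CPM in control replicates 1, 2 and 3. The GOLPH3 shRNA libraries were nearly equal to each other, and all stood far above the controls. Asns averaged 271.6 ± 1.53 CPM with GOLPH3 shRNA and 190.6 ± 8.20 CPM with control shRNA (SD, n = 3 each), a 1.43-fold higher level. The log2 fold change was 0.51 (SE 0.067, 95% interval 0.37 to 0.65, edgeR adjusted p = 2.89e-05), and 13.1% of all tested IDs had a larger positive one. In each of the 15 other settings Asns, Ddit3 and Atf3 were called higher, with log2 fold changes from 0.49 to 0.54 for Asns, 0.39 to 0.48 for Ddit3 and 0.76 to 1.02 for Atf3.

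The DNA sequence that ATF4 binds together with a C/EBP partner is the composite C/EBP-ATF element, which was searched here as TGATGNAA (N is any base) on both strands of the 250 bases before each human gene start in RefSeq (GRCh38.p14). Human promoters were used because the labels give human cells. Of the 10 members, 9 were matched by symbol, with 16 starts in all, and NUPR1 was not. The letters were found before a start of ASNS, ATF3 and CHAC1, or 3 of 9 genes, against 3.89% of all 27305 genes in the RefSeq table. By window, they were in 3 of 16 member windows and in 3.14% of all 35116 windows. The set was chosen as genes of the ATF4 and CHOP axis, so a larger share than among all genes is not an independent result. Of the genes with a match, ASNS and ATF3 were called higher in the counts and CHAC1 was not called. The windows of DDIT3 and CEBPB, which were called higher, did not hold these letters, which says nothing of elements elsewhere. The cAMP response element TGACGTCA was found in none of the 16 member windows (0) and in 1.65% of all 35116 windows. The counts are of mouse gene IDs, so sites and counts share a symbol only, and the sites may not be those of the genes counted. Each match is shown in capitals with 40 bases on either side, 5′ to 3′ on the strand of the gene. The stretches are chr7:97872429-97872516 (minus strand) for ASNS, chr1:212565176-212565263 (plus strand) for ATF3 and chr15:40953222-40953309 (plus strand) for CHAC1.
ASNS: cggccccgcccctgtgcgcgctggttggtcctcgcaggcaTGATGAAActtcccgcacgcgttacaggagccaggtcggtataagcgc
ATF3: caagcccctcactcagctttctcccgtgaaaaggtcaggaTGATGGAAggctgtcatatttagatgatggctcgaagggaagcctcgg
CHAC1: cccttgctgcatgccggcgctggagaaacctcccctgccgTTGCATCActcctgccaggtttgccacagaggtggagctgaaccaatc
In ASNS the match began at position -68 from the gene start, in ATF3 at -191 from the first of its starts, and in CHAC1 at -209, where it lies on the opposite strand and so reads TTGCATCA. The ASNS element is known as part of that gene's nutrient-sensing response unit. A match of letters is a description and does not show that ATF4 was bound.

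Chac1 (ENSMUSG00000027313.3), which encodes a glutathione-degrading enzyme and is a target of ATF4, was near the lower limit of what could be tested. GOLPH3 shRNA replicates 1, 2 and 3 held 6, 15 and 16 counts, against 26, 21 and 25 counts in control replicates 1, 2 and 3. In CPM these were 1.22, 2.69 and 2.89 with GOLPH3 shRNA, against 4.05, 2.86 and 3.94 with control shRNA. The groups overlapped, since GOLPH3 shRNA replicate 3 was slightly above control replicate 2. The log2 fold change was -0.65 (SE 0.42, 95% interval -1.54 to 0.24, edgeR adjusted p = 0.25). This wide interval allows a level from 0.343 to 1.18 times that of the controls. Without GOLPH3 shRNA replicate 1 the value was -0.37, and over the 15 settings it ran from -0.87 to -0.37 without a call.

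Sesn2 and Ddit4 encode inhibitors of the growth kinase complex mTORC1, and neither was called. Sesn2 (ENSMUSG00000028893.8) had 50.1, 46.2 and 35.4 CPM in GOLPH3 shRNA replicates 1, 2 and 3, against 50.9, 45.1 and 42.7 CPM in control replicates 1, 2 and 3. The values overlapped and GOLPH3 shRNA replicate 3 was the lowest of all. Its log2 fold change was -0.077 (SE 0.13, 95% interval -0.35 to 0.20, edgeR adjusted p = 0.68) and turned to 0.051 without that library. Ddit4 (ENSMUSG00000020108.4), also known as REDD1 and a hypoxia and glucocorticoid target as well, had the most counts of the set. It had 1154, 1025 and 1078 CPM in GOLPH3 shRNA replicates 1, 2 and 3, against 964.4, 1151 and 1089 CPM in control replicates 1, 2 and 3. The groups overlapped, and the control libraries alone spanned nearly the whole range. For Ddit4 the difference was 0.023 on the log2 scale (SE 0.075, edgeR adjusted p = 0.84), with a 95% interval of 0.910-fold to 1.13-fold. Its sign turned without GOLPH3 shRNA replicate 1 (-0.027) or control replicate 1 (-0.050).

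**Figure D3:**
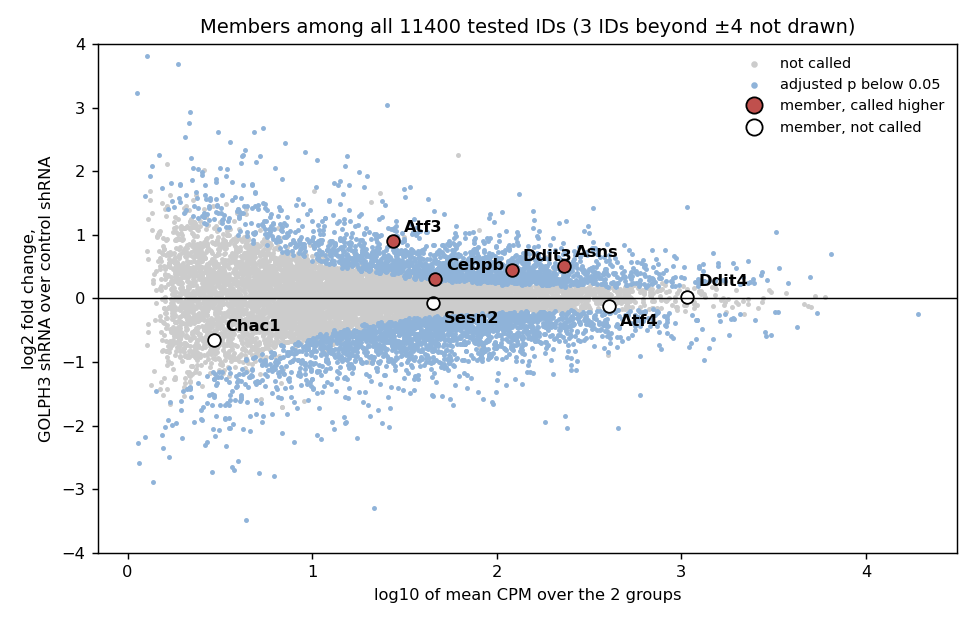
Log2 fold change (vertical axis, GOLPH3 shRNA over control shRNA) against the log10 of mean CPM for all 11400 tested IDs (grey, not called; blue, edgeR adjusted p below 0.05), with the 8 tested members as large circles, filled in red where called higher. Atf3, Asns, Ddit3 and Cebpb lie among the blue points above 0, while Ddit4, at the right, lies almost on the line.

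Trib3 (ENSMUSG00000032715.9), a pseudokinase that ATF4 and CHOP induce and that dampens the response, was listed at 0, 2 and 0 counts in GOLPH3 shRNA replicates 1, 2 and 3 and at 1, 2 and 1 counts in control replicates 1, 2 and 3. Nupr1 (ENSMUSG00000030717.9), a small stress-induced chromatin protein, had estimates of 1, 0.514 and 0 counts in GOLPH3 shRNA replicates 1, 2 and 3 and of 0, 0 and 2.14 counts in control replicates 1, 2 and 3. Both groups were under 3 counts in every library, so no fold is given for either gene. A count of 0 allows up to 3 counts, which is 0.537 to 0.608 CPM in a GOLPH3 shRNA library and 0.409 to 0.473 CPM in a control library. That limit covers counting error only, and reads that were not assigned to these IDs are not covered by it.

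**Figure D4:**
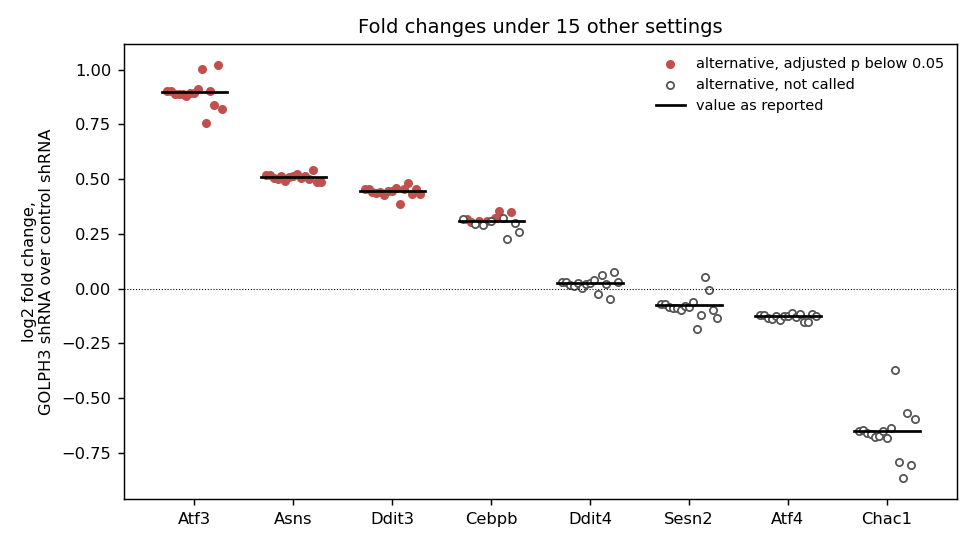
Log2 fold change (vertical axis, GOLPH3 shRNA over control shRNA) of each tested member under 15 other settings (points, red where the adjusted p was below 0.05 and open where not), beside the value as reported (black line). Atf3, Asns and Ddit3 are red throughout, Cebpb is red in 7 of 15, and only the points of Ddit4 and Sesn2 fall on both sides of 0.

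The called members did not move by equal amounts within the GOLPH3 shRNA libraries. Replicate 1 had the highest Ddit3 value of the 3 and the lowest Atf3 and Cebpb values, while Atf3 was highest in replicate 2 and Cebpb in replicate 3. Asns was nearly the same in all GOLPH3 shRNA libraries, with a range of 270.0 to 273.1 CPM. With 3 libraries in a group no correlation between members was computed. Genes whose pattern over the libraries is most like that of the members are not named, because their IDs carry no symbols.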

How the data were processed

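RNA was sequenced from 3 GOLPH3 shRNA and 3 control shRNA libraries, made with a stranded mRNA kit per the labels' protocols. The deposited table gives the authors' estimated counts for each gene ID, not scaled, some of them with a fractional part. The genome build is mm10 per the submitters' processing notes. Aligner, quantifier, annotation release and strand setting were not given in the sources used here. Thus reads of overlapping or antisense genes may be shared.

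Estimates were rounded, filtered with filterByExpr (99.7% to 99.8% of each library's counts), scaled with TMM factors (0.978 to 1.02) and compared with the edgeR 4.0.16 quasi-likelihood test in R 4.3.3, on the whole table, with Benjamini-Hochberg adjustment and a call at an adjusted p below 0.05. The step was tested on simulated data, in which far fewer IDs were changed than were called in these libraries. The standard error (SE) is the size of the log2 fold change over the root of its F statistic. Alternatives were DESeq2 1.42.0, limma-voom (limma 3.58.1), other scalings and filters, unrounded estimates, a replicate block, a stricter threshold and each library left out. All 10 members were to be named, whatever their values. Lists of other pathway genes and cell type markers, written by symbol, were not run because the IDs carry no mouse symbols here. The members and lists were chosen with earlier results of these data known.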

Additional observations from a re-analysis of the deposited data

How the results depend on the processing

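Asns, Ddit3 and Atf3 were called higher under all 15 other tests, scalings, filters and left-out libraries, and Atf4, Chac1, Sesn2 and Ddit4 under none of them. The number of members called higher was 3 or 4 in each, Cebpb being the one lost, and the number called lower was 0. Cebpb was not called with DESeq2 (adjusted p = 0.058), library totals (adjusted p = 0.051), no filter (adjusted p = 0.067) or the replicate block (adjusted p = 0.051), nor without 4 of the 6 libraries; the cause was not tested. Leaving out each library in turn gave log2 fold changes of -0.050 to 0.075 for Ddit4 and -0.18 to 0.051 for Sesn2, and 3069 to 3594 called IDs in all. An adjusted p below 0.01 called 2482 of all tested IDs, where 0.05 called 3870, by construction, and kept Asns, Ddit3 and Atf3. With the replicate number as a block, 3887 IDs were called, and Cebpb was the only member whose call changed. Across IDs, libraries of the same number deviated from their group means with correlations of 0.032, 0.090 and 0.044, all under 0.1. Libraries of different number gave correlations from -0.086 to 0.037. For each GOLPH3 shRNA library the control of the same number gave the highest value. The reverse held for control replicates 2 and 3. Control replicate 1 had a higher value with GOLPH3 shRNA replicate 3 (0.037) than with GOLPH3 shRNA replicate 1 (0.032). The labels do not say that the numbers pair libraries, so they were not taken as pairs in the main test. Low counts limit what can be said of Chac1, Trib3 and Nupr1. Whether depth, low expression or unassigned reads kept them low was not tested.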
